A study of Mus musculus with 4 samples.

Results

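The genes of the mouse mitochondrial genome were taken as all features that the deposited gene tables place on chrM. This rule found 24 of 40999 listed features, of which 22 were transfer RNA (tRNA) genes and 2 were the ribosomal RNA (rRNA) genes Rnr1 and Rnr2. Of the tRNA genes, 14 lay on the plus strand and 8 on the minus strand, and both rRNA genes lay on the plus strand. The 13 protein-coding genes that the GENCODE annotation places on this chromosome were not analysed here. Mitochondrial reads and TPM below are therefore those of the 24 listed features, without any mRNA. Each of the 24 features matched 1 GENCODE gene of build mm10 in start, end and strand. The triplet of the anticodon for the named amino acid occurred in all 22 tRNA sequences. No minimum of base pairs around the triplet was required. TrnS2 had the fewest, 2, and the same triplet occurs earlier in its sequence, so its anticodon was not located. Of the 24 members, 21 held at least 40 reads summed over the 4 libraries, the minimum for a ratio between libraries, as did 18664 of all features. The 3 that did not were the tRNAs TrnY, TrnS1 and TrnK.

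The mitochondrial genome is a small circle that every mitochondrion keeps in many copies. Both strands are transcribed into long precursors that run through many genes, and tRNAs that lie between the other genes are cut out at both ends, which frees the rRNAs and mRNAs beside them. The rRNAs form the small (Rnr1) and large (Rnr2) subunits of the mitochondrial ribosome, and the tRNAs serve translation of the few respiratory chain subunits that this genome encodes. Everything else that this system needs, from the RNA polymerase to the enzymes that cut and modify the tRNAs, is encoded in the nucleus.

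The tissue was embryonic gonad of C57BL/6J wild-type mice at embryonic days E11.5 to E14.5, sampled daily, a period in which sex determination and early germ cell differentiation take place. XX and XY gonads of at least 6 embryos per time point were pooled in equal numbers, and the E11.5 pool also contained the mesonephros, the neighbouring embryonic kidney tissue. Total RNA was depleted of rRNA and sequenced with a stranded kit that captures short and long RNAs together, with 1 library per time point and 4 in all. With no replicate library, no test was possible and no p-value is given. The 95% intervals below are exact binomial intervals that cover counting error only, and differences of stage, of pool and of library cannot be told apart.

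The libraries held 25593453 to 31752562 reads after removal of duplicate molecules. They differed in nuclear rRNA, which took 9.06%, 1.31%, 1.03% and 40.7% of the reads in the order of stage. Gonadal marker genes were present in all libraries. Among mesonephric markers, Pax2 fell from 1531 reads at E11.5 to 60 at E12.5, Wnt9b from 575 to 10, Gata3 from 1078 to 84 and Pax8 from 546 to 283. Lhx1, a further marker of that list, went the other way, from 209 to 299 reads. The germ cell gene Dazl had 53 and 4555 reads. In such pooled tissue, fewer cells of a type and less RNA per cell cannot be told apart.

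The direction of a change into E14.5, the library with the most nuclear rRNA, depended on the scale. Ratios below use effective library sizes by the trimmed mean of M values (TMM), which hold the median gene near 0. By total counts (CPM, reads scaled to the total of their library), the median of all 18664 features instead shifted by 0.16, 0.03 and -1.07 on the log2 scale in the 3 steps from each stage to the next. Measures taken within the mitochondrial reads, such as the share of 1 tRNA among all mitochondrial tRNA reads, do not depend on this choice and carry most of what follows.

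Of the 22 tRNA sequences, 10 are shown, for 3 reasons. TrnV (valine, chrM:1025-1093, plus strand), TrnL1 (leucine, UUR codons, chrM:2676-2750, plus strand), TrnN (asparagine, chrM:5089-5159, minus strand) and TrnH (histidine, chrM:11546-11612, plus strand) were the most abundant tRNAs or those whose share was larger at E14.5 than at E13.5. TrnI (isoleucine, chrM:3706-3774, plus strand), TrnW (tryptophan, chrM:4950-5016, plus strand), TrnR (arginine, chrM:9808-9875, plus strand) and TrnG (glycine, chrM:9391-9458, plus strand) had a smaller share at E14.5. TrnS1 (serine, UCN codons, chrM:6870-6938, minus strand) and TrnK (lysine, chrM:7700-7764, plus strand) were at or near 0 in every library. The sequences are the annotated gene sequences of GENCODE (build mm10), written 5′ to 3′ in the direction of the gene, and the capitals mark the anticodon.
TrnV: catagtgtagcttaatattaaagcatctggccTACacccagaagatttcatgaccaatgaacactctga
TrnL1: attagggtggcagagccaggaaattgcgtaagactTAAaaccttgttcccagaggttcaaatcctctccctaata
TrnN: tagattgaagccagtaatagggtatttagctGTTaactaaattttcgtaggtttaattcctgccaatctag
TrnH: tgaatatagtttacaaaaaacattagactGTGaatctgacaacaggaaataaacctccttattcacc
TrnI: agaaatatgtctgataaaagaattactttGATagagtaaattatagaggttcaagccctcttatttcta
TrnW: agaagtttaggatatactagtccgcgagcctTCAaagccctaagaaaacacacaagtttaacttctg
TrnR: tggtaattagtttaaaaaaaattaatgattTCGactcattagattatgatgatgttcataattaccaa
TrnG: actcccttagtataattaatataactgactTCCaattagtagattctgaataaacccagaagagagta
TrnS1: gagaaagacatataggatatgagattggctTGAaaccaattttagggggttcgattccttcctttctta
TrnK: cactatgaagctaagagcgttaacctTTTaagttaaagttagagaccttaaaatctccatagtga

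The rRNAs held nearly all reads of the 24 members, which include no mRNA gene. They are among the RNAs that such depletion kits target, so their values are what was left after depletion. The share of chrM in all reads was 8.72%, 7.62%, 7.73% and 8.30% from the earliest to the latest stage. Of these mitochondrial reads, 99.6% to 99.7% came from Rnr1 and Rnr2 in each library. Rnr1 (chrM:70-1024, plus strand) had 1081485, 684749, 816710 and 1017760 reads in the order of stage. Rnr2 (chrM:1094-2675, plus strand) had 1633863, 1258256, 1627744 and 1590161 reads. Scaled by total counts, Rnr1 (34589, 26755, 25721 and 32283 CPM) was lower in the 2 middle libraries than in the first and the last, while Rnr2 stayed between 49163 and 52256 CPM. By TMM, Rnr1 had 31628, 21786, 20626 and 54070 CPM, and Rnr2 had 47782, 40033, 41108 and 84480 CPM. On that scale both were highest at E14.5.

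The proportion of the 2 rRNAs to each other changed over the series. The small subunit rRNA had 0.662 reads per read of the large subunit rRNA at E11.5 (95% interval 0.660 to 0.664), 0.544 at E12.5 (0.543 to 0.546), 0.502 at E13.5 (0.5004 to 0.503) and 0.640 at E14.5 (0.638 to 0.642). Per length, as the ratio of the deposited TPM values (counts per exon length, scaled to the same sum in each library), these were 1.10, 0.902, 0.831 and 1.06. The small subunit rRNA thus exceeded the large per base in the first and last libraries and was below it in both middle ones. These were also the libraries with more and less nuclear rRNA, respectively. The part of rRNA depletion in this proportion was not tested.

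**Figure D1:**
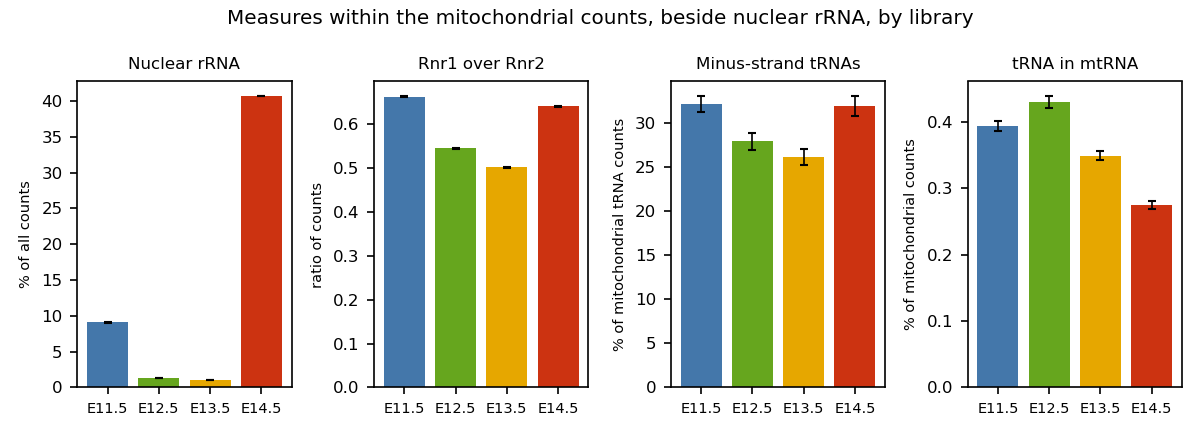
Bars give 1 library each, from left to right the share of nuclear rRNA in all reads (%), the ratio of Rnr1 to Rnr2 reads, the share of the 8 minus-strand tRNAs in mitochondrial tRNA reads (%) and the share of tRNA in mitochondrial reads, mRNA not included (%), with exact 95% counting intervals. The first 3 measures were all higher at E11.5 and E14.5 than at E12.5 and E13.5, whereas the tRNA share was highest at E12.5 (0.430%) and lowest at E14.5 (0.275%).

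The tRNAs together gave 10721, 8384, 8570 and 7184 reads, or 0.034%, 0.033%, 0.027% and 0.023% of each library. The mitochondrial reads hold no mRNA and only the rRNA left after depletion. Within them the tRNA share was 0.393% at E11.5 (0.386 to 0.401), 0.430% at E12.5 (0.421 to 0.439), 0.349% at E13.5 (0.342 to 0.357) and 0.275% at E14.5 (0.268 to 0.281). The intervals do not overlap, and the share was lower in the last 2 libraries than in the first 2. Per length, tRNA made up 6.67%, 7.40%, 6.15% and 4.76% of the summed mitochondrial TPM. Against the nuclear tRNAs, which serve cytosolic translation, the mitochondrial tRNAs amounted to 9.94%, 11.6%, 14.7% and 10.1% of their reads. This proportion was highest at E13.5, and nuclear tRNA itself made up 0.345%, 0.281%, 0.184% and 0.226% of all reads. The counts of a tRNA gene do not separate mature tRNA from the precursor, since reads of both fall on the same bases.

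**Figure D2:**
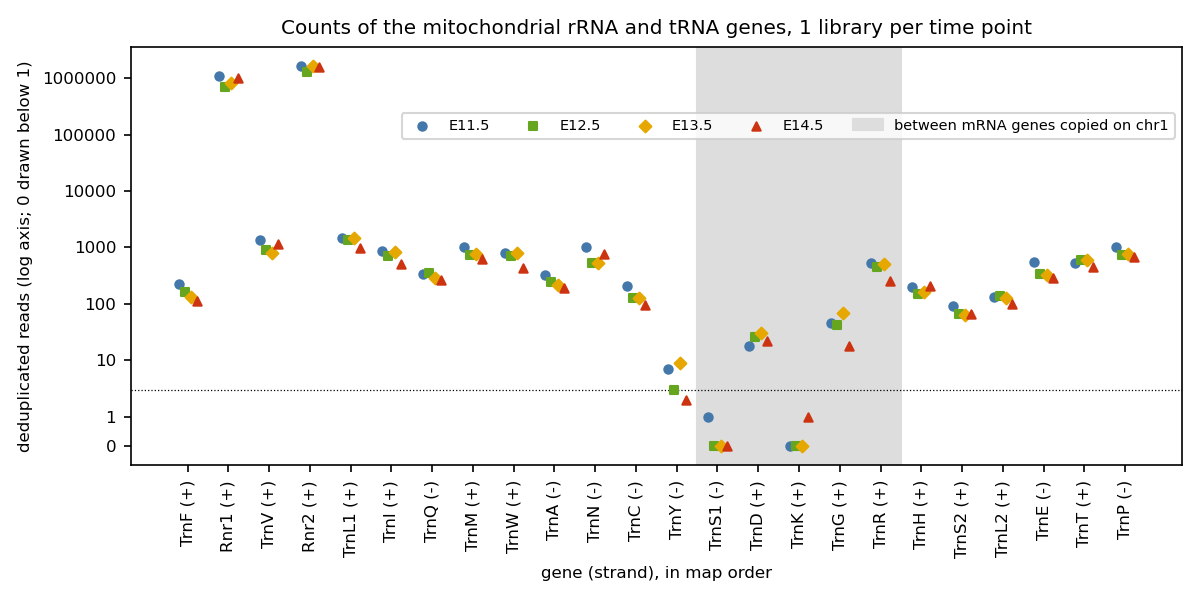
Reads of each of the 24 members (log axis, 0 drawn below 1) in map order with the strand in brackets, 1 point per library, and a dotted line at the 3 reads that a count of 0 allows. The rRNAs hold 684749 to 1633863 reads and 17 tRNAs 64 to 1488, while the 5 lowest (TrnY, TrnS1, TrnD, TrnK and TrnG) hold at most 68, 4 of them in the shaded stretch whose mRNA genes have copies on chr1.

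Single tRNAs spanned more than 3 orders of magnitude, and their order was nearly the same in every library. Spearman's rho between libraries over the 22 tRNAs was 0.955 to 0.983, as a description of genes that share a library. The 5 with the highest mean count held 53.2% to 54.5% of all mitochondrial tRNA reads. They were TrnL1, TrnV, TrnP, TrnM and TrnI, with mean counts of 1315, 1047, 795, 785 and 734. Per length, TrnL1 led in the first 3 libraries with 894, 1092 and 1002 TPM, and had 457 TPM at E14.5. TrnV followed at E11.5 and E12.5 with 874 and 784 TPM, stood behind TrnI and TrnW at E13.5 with 611 TPM, and led at E14.5 with 587 TPM.

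Both leading tRNAs border the rRNA genes. TrnV fills the space between Rnr1 and Rnr2 with no base to spare on either side, and TrnL1 begins on the base after Rnr2 and ends beside Nd1, a subunit of respiratory complex I. TrnF (phenylalanine, chrM:1-68, plus strand), which lies 1 base before Rnr1, had far fewer reads, at 222, 161, 131 and 113. A place beside the rRNAs was therefore shared by tRNAs at both high and modest levels.

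TrnP (proline, chrM:15356-15422, minus strand) had 1007, 740, 752 and 680 reads. TrnM (methionine, chrM:3845-3913, plus strand), which reads start and internal methionine codons alike in mitochondria, had 1020, 738, 756 and 627 reads. TrnI had 871, 712, 842 and 511 reads. By total counts TrnP and TrnM were both highest at E11.5 and lowest at E14.5, whereas by TMM both were highest at E14.5. Their shares of tRNA reads overlapped in their intervals in all 4 libraries. TrnI instead differed little over the first 3 libraries (27.9, 27.8 and 26.5 CPM by total counts).

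By position, the tRNAs beside the rRNAs (TrnF, TrnV and TrnL1) held 27.8% to 30.8% of mitochondrial tRNA reads over the libraries. The cluster TrnI, TrnQ and TrnM held 19.5% to 22.0%, and the cluster TrnW, TrnA, TrnN, TrnC and TrnY 19.2% to 21.8%. TrnT and TrnP held 14.4% to 15.9%, TrnH, TrnS2 and TrnL2 3.94% to 5.22%, and the 6 tRNAs that stand alone or in a pair between mRNA genes 8.24% to 10.8%. Levels also differed within a cluster. TrnY, which ends the cluster with TrnN, had 7, 3, 9 and 2 reads, where TrnN had at least 522. Over the 22 tRNAs, the mean count had a Spearman's rho of 0.44 with GC content and 0.32 with length, both as descriptions.

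The lowest tRNAs lay mostly in 1 stretch of the genome. TrnS1 had 1 read at E11.5 and 0 in the other libraries, and TrnK had 1 read at E14.5 and 0 in the others, where a count of 0 allows up to 3 reads (0.094 to 0.117 CPM). TrnD (aspartate, chrM:6942-7011, plus strand) had 18, 26, 31 and 22 reads, and TrnG had 46, 43, 68 and 18. The genes around these tRNAs encode subunits of the respiratory chain and of the ATP synthase. In the chrM span 6390 to 11042, 8 mRNA genes matched, in whole or in part, pseudogenes that GENCODE places on chromosome 1 (chr1:24611535-24616197) at 99.7% to 100% identity over the aligned bases. This comparison was made after the low counts had been seen.

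All of TrnS1, TrnD, TrnK, TrnG and TrnR lie between genes with such a copy. These 5 had mean counts of 0.25 to 433, against 5.25 to 1315 for the 17 tRNAs elsewhere. The exception among the 5 was TrnR, with 527, 443, 503 and 259 reads. For TrnS1 with TrnD, for TrnK and for TrnG, the distance between the nearest copied genes that were compared (Co1 to Co2, Co2 to Atp6 and Co3 to Nd3) was the same on chrM and on chromosome 1, at 140, 233 and 69 bases. For TrnR (Nd3 to Nd4l) it was 73 bases on chrM and 74 on chromosome 1. The chromosome 1 sequence between the pseudogenes was not read here, and the study describes the reads that it assigned to genes as uniquely mapped. The part of the copies in the counts was not tested.

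From E11.5 to E12.5, no member was past 2-fold on the TMM scale, where 8.54% of all features were at least 2-fold higher and 7.94% at least 2-fold lower. The summed tRNA reads changed by -0.23 (log2; -0.27 to -0.19) and by -0.07 by total counts, and turned to 0.06 on the TPM scale. TrnN had the lowest ratio among tRNAs with at least 100 reads, at -0.82 (-0.97 to -0.67) from 1012 to 527 reads. TrnE (glutamate, chrM:14071-14139, minus strand) followed at -0.57 (-0.77 to -0.38), and TrnC (cysteine, chrM:5192-5257, minus strand) at -0.54 (-0.88 to -0.22). All 3 are minus-strand genes, and each ratio stayed below 0 by total counts and in TPM.

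The highest ratio among tRNAs with at least 100 reads belonged to TrnT (threonine, chrM:15289-15355, plus strand), at 0.28 (0.11 to 0.45) from 533 to 595 reads. TrnQ (glutamine, chrM:3772-3842, minus strand) at 0.20 (-0.02 to 0.42) and TrnL2 (leucine, CUN codons, chrM:11671-11741, plus strand) at 0.19 (-0.17 to 0.54) had intervals that include 0. TrnQ overlaps TrnI by 3 bases on the opposite strand, and TrnL2 shares 1 base with TrnS2. Of the 6 minus-strand tRNAs with a ratio, 5 were below 0 on every scale, whereas 9 of 13 plus-strand tRNAs were below 0 by TMM and 6 of 13 by total counts. The mesonephros was in the E11.5 pool only, and its part in these ratios was not tested.

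From E12.5 to E13.5, again no member was past 2-fold, where 2.70% of features were at least 2-fold higher and 1.59% at least 2-fold lower. The tRNAs nevertheless shifted together. By TMM and by total counts alike, 18 of 19 tRNAs were below 0, as were 16 of 19 in TPM, while 51.2% of all features were above 0 by TMM. This was not particular to mitochondrial tRNAs. By TMM, 246 of 260 nuclear tRNAs, 16 of 16 small nuclear RNAs and 92 of 120 small nucleolar RNAs were also below 0. The mitochondrial tRNA sum changed by -0.30 (-0.35 to -0.26), -0.28 by total counts and -0.17 in TPM. The rRNA sum changed by -0.00 by TMM, by 0.02 by total counts and by 0.11 in TPM. The tRNA sum was thus lower relative to the rRNA sum. TMM and total counts give this relation alike by design, while TPM also weighs by length. TrnG, with 43 and 68 reads, was the exception at 0.32 (-0.24 to 0.91).

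TrnF had the lowest ratio, at -0.63 (-0.97 to -0.29) from 161 to 131 reads. TrnQ had -0.63 (-0.86 to -0.40) from 353 to 288 reads. TrnA (alanine, chrM:5018-5086, minus strand) had -0.49 (-0.76 to -0.23) from 246 to 220 reads. No tRNA with at least 100 reads had a ratio above 0 by TMM, and TrnI came nearest at -0.09 (-0.24 to 0.05). TrnR followed at -0.15 (-0.34 to 0.04) from 443 to 503 reads, and TrnW at -0.17 (-0.32 to -0.02) from 707 to 793 reads. The plus-strand sum changed by -0.27 (-0.32 to -0.22) and the minus-strand sum by -0.40 (-0.48 to -0.31), and these intervals overlap.

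**Figure D3:**
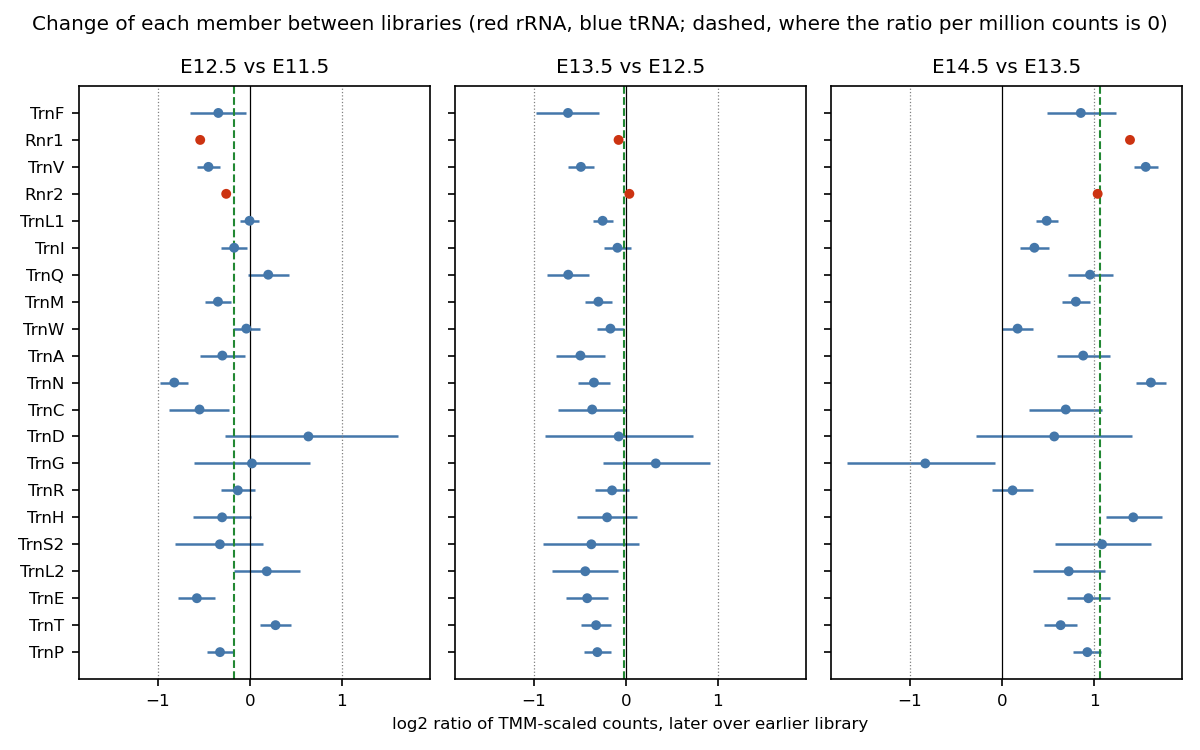
Log2 ratio of TMM-scaled reads, later over earlier library, for the 21 members above the minimum in the 3 comparisons, with exact 95% counting intervals, dotted lines at 2-fold and a dashed line where the ratio by total counts would be 0. At E12.5 and E13.5 all points stay within 2-fold. At E14.5 all but TrnG (-0.83) lie above 0 by TMM, but only Rnr1, TrnV, TrnN, TrnH and TrnS2 lie above 0 by total counts.

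From E13.5 to E14.5, 6 of 21 members were at least 2-fold higher by TMM, against 5.89% of all features, and none was at least 2-fold lower, against 2.25%. By total counts none was at least 2-fold higher, against 1.49%, and 1 was at least 2-fold lower, against 60.7%. The 6 were Rnr1, Rnr2, TrnV, TrnN, TrnH and TrnS2. Rnr1 had a ratio of 1.39 by TMM and 0.33 by total counts. Rnr2 had 1.04 and -0.02. A higher level of the large subunit rRNA at E14.5 was thus a matter of the scale, while Rnr1 was above 0 on both of these scales and below 0 in TPM (-0.23).

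TrnV went from 810 to 1137 reads, a ratio of 1.56 by TMM (1.43 to 1.69) and 0.50 by total counts. TrnN went from 522 to 762 reads, at 1.62 (1.46 to 1.78) and 0.56. TrnH went from 164 to 210 reads, at 1.43 (1.13 to 1.73) and 0.37. In TPM, where the median of all features shifted by -1.63, all 3 were below 0 (-0.06, -0.00 and -0.19). TrnS2 (serine, AGY codons, chrM:11613-11671, plus strand), a tRNA that lacks an arm of the usual cloverleaf, had nearly the same count in both libraries, 64 and 65, which gave 1.09 (0.57 to 1.62) by TMM and 0.03 by total counts.

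At the other end, TrnG went from 68 to 18 reads, at -0.83 (-1.68 to -0.08) by TMM and -1.88 by total counts. It was the only member below 0 by TMM and the 1 member past 2-fold by total counts. TrnR went from 503 to 259 reads, at 0.12 (-0.11 to 0.33) and -0.95. TrnW went from 793 to 424 reads, at 0.17 (-0.00 to 0.34) and -0.89. TrnI went from 842 to 511 reads, at 0.35 (0.19 to 0.51) and -0.71. These 4 tRNAs were low relative to the other mitochondrial tRNAs whichever scale was used, since the scale moves all of them alike.

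**Figure D4:**
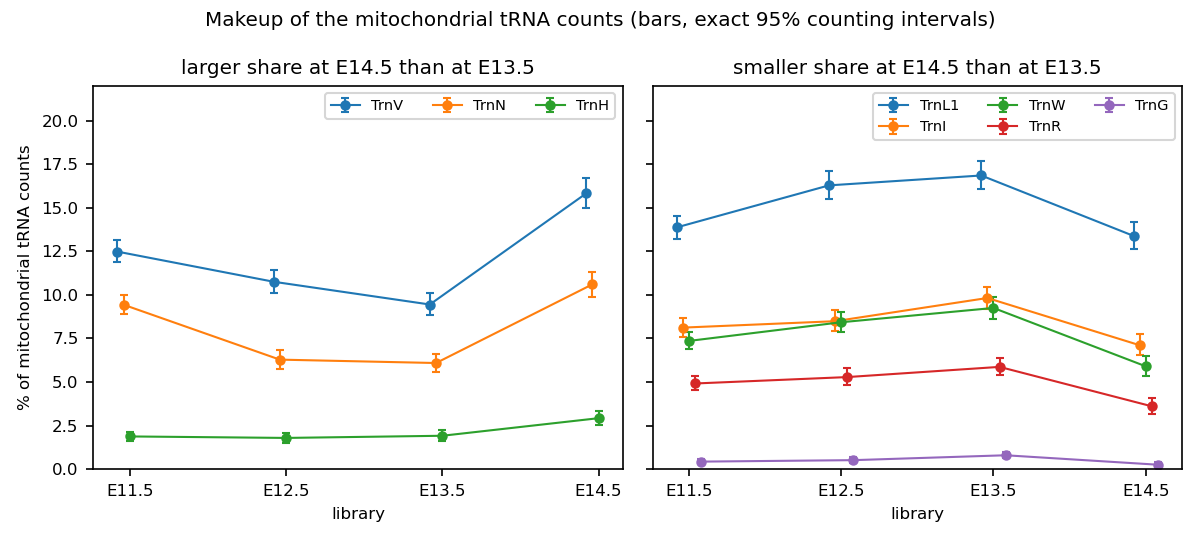
Share of single tRNAs in all mitochondrial tRNA reads (%) in the 4 libraries, with exact 95% counting intervals, for the 3 tRNAs with a larger share (left) and the 5 with a smaller share (right) at E14.5 than at E13.5. TrnV went from 9.45% to 15.8% and TrnN from 6.09% to 10.6%, while TrnL1 went from 16.9% to 13.4%.

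The makeup of the tRNA reads shows these shifts without any scale between libraries. Between E13.5 and E14.5 the intervals of 8 of 22 tRNAs did not overlap, against 6 between E11.5 and E12.5 and 3 between E12.5 and E13.5. No like count was made over other features, so these counts have no background to be read against. Since the shares add up to a fixed total, a larger share of some tRNAs lowers that of others. TrnV held 12.49%, 10.8%, 9.45% and 15.8% of the tRNA reads, a course that was low in the middle and highest at the end. TrnN held 9.44%, 6.29%, 6.09% and 10.6%, and was likewise low in both middle libraries. TrnH held 1.87%, 1.79%, 1.91% and 2.92%, so that only E14.5 stood apart.

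TrnL1 held 13.9%, 16.3%, 16.9% and 13.4%, the reverse of the course of TrnV. TrnW held 7.36%, 8.43%, 9.25% and 5.90%, and TrnR 4.92%, 5.28%, 5.87% and 3.61%. TrnI held 8.12%, 8.49%, 9.83% and 7.11%. All 5 tRNAs with a smaller share at E14.5 were plus-strand genes, as were TrnV and TrnH among the 3 with a larger share. TrnT stood apart earlier, with 4.97% at E11.5 and 7.10% at E12.5, and TrnQ had 3.12% and 4.21%.

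At E14.5 the order of the leading tRNAs was TrnV (14.99 to 16.7), TrnL1 (12.6 to 14.2), TrnN (9.90 to 11.3), TrnP (8.80 to 10.2) and TrnM (8.09 to 9.40), as intervals of the share in percent. TrnV and TrnL1 were each set apart from the next by more than counting error, whereas TrnN overlapped TrnP and TrnP overlapped TrnM. At E13.5 TrnL1 (16.1 to 17.7) stood alone in front of TrnI (9.20 to 10.5), TrnV (8.84 to 10.1) and TrnW (8.65 to 9.89), which overlapped each other. GENCODE also holds stretches similar to 4 mitochondrial tRNAs in a retained-intron transcript of the nuclear gene Cep295. Among them were 71 bases at 91.5% identity to TrnN and 62 bases at 93.5% to TrnL1. Rnr2 matched the gene Gm20594 over 435 bases at 88.5%, and TrnT the pseudogene Gm43841 over 36 bases at 97.2%. Only annotated transcripts were searched, and the part of such stretches in the counts was not tested.

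The minus strand carried 32.1% of the tRNA reads at E11.5 (31.3 to 33.0), 27.9% at E12.5 (26.9 to 28.9), 26.1% at E13.5 (25.2 to 27.0) and 31.9% at E14.5 (30.8 to 33.0). Its share was higher in the first and last libraries, like the proportion of Rnr1 to Rnr2. TrnN carried much of this course. Without TrnN, an alternative chosen after the values had been seen, the minus-strand share was 25.1%, 23.0%, 21.3% and 23.8%. The E14.5 share then lay between those of E11.5 and E12.5.

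Other short RNAs moved between libraries as well. Nuclear tRNAs had median ratios of -0.57, -0.61 and 1.35 by TMM in the 3 successive comparisons, beside -0.30, -0.32 and 0.80 for the mitochondrial tRNAs. By total counts the medians at E14.5 were 0.30 for nuclear and -0.26 for mitochondrial tRNAs, so the order of these classes was kept and the sign of the mitochondrial median was not. Small nuclear RNAs, the core of the spliceosome, had -0.43, -0.25 and 0.97 by TMM and, like the mitochondrial tRNAs, a median below 0 at E14.5 by total counts (-0.09). Small nucleolar RNAs had -0.64, -0.17 and 1.44 by TMM, and protein-coding genes 0.01, 0.02 and -0.01. At E14.5, 197 of 260 nuclear tRNAs and 85 of 120 small nucleolar RNAs were at least 2-fold higher by TMM, against 4 of 19 mitochondrial tRNAs and 5.89% of all features. By total counts 27 nuclear tRNAs, 22 small nucleolar RNAs and 0 mitochondrial tRNAs were, against 1.49% of all features. Ratios of this size were thus common among short noncoding RNAs at E14.5 by TMM, and the difference between the classes was not tested.

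**Figure D5:**
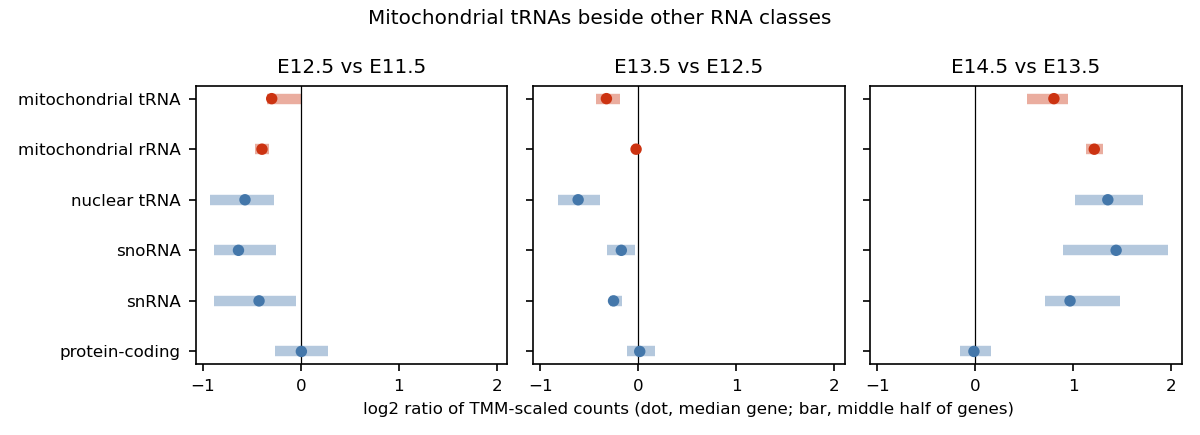
Median (dot) and middle 50% (bar) of the log2 ratios of TMM-scaled reads in 6 RNA classes for the 3 comparisons, with mitochondrial classes in red. At E14.5 the medians of all short noncoding classes lie above 0 by TMM (0.80 for mitochondrial tRNA, 1.35 for nuclear tRNA, 1.44 for small nucleolar RNA, 0.97 for small nuclear RNA), but those of mitochondrial tRNA (-0.26) and small nuclear RNA (-0.09) lie below 0 by total counts, while the median protein-coding gene stays at -0.01 by TMM.

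Nuclear genes of mitochondrial function were taken from 6 lists. These covered transcription, RNA processing and decay, DNA replication and packaging, tRNA and rRNA modification, translation factors, and genes that follow mitochondrial mass. All 98 different genes had a ratio in every comparison. None of the 98 was past 2-fold at E12.5 or at E13.5, against the 8.54% and 2.70% of features higher and the 7.94% and 1.59% lower given above. Their medians were 0.05 and -0.04, on a scale that holds the median of all features near 0. Polrmt, the mitochondrial RNA polymerase, had 22.2, 23.1, 20.2 and 22.2 TMM-scaled CPM. Tfam, which packages the mitochondrial DNA and starts its transcription, had 37.8, 38.8, 38.5 and 33.4. Trmt10c and Elac2, which take part in cutting the 5′ and 3′ ends of the tRNAs, had 22.4, 22.3, 23.8 and 20.3, and 20.2, 22.4, 23.0 and 25.7.

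At E14.5, 2 of the 98 were at least 2-fold higher by TMM and none lower, where 5.89% of all features were higher and 2.25% lower, with a median of -0.05 (-1.11 by total counts, near the shift of all features). Mrm1, a methyltransferase of the large subunit rRNA, went from 1146 to 1197 reads, a ratio of 1.14 (1.02 to 1.25). Mtrf1l, a release factor of mitochondrial translation, went from 884 to 901 reads, a ratio of 1.10 (0.96 to 1.24). By total counts neither was past 2-fold. Mrm1 had 62.3, 34.4, 28.9 and 63.6 TMM-scaled CPM over the 4 libraries, and Mtrf1l 33.0, 24.2, 22.3 and 47.9. By TMM both genes were lowest in the 2 middle libraries, which had the least nuclear rRNA, and its part in this course was not tested. The other 96 stayed within 2-fold in each comparison.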

How the data were processed

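Per the labels and the study's methods, 4 libraries of pooled embryonic gonads, 1 per time point, were made with the SEQuoia Complete Stranded kit after rRNA depletion. The authors trimmed reads, aligned them to mm10 with STAR, removed duplicates by molecular identifiers and counted reads per gene with featureCounts. The deposited counts are whole numbers per gene. The deposited TPM values were made by the authors from these counts and exon lengths. The study describes the reads assigned to genes as uniquely mapped. The annotation release and the counting settings are not given in the sources used here.

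Here, counts were scaled by TMM over the 4 libraries (edgeR 4.0.16, R 4.3.3). Log2 ratios used a prior count of 0.5 and features with at least 40 reads in all, and a change was called at 2-fold. The libraries held 25593453 to 31752562 reads. Intervals were exact (Clopper-Pearson, scipy 1.17.1), and a count of 0 was taken to allow 3. The ratio step was tested only on simulated libraries that shared the same makeup apart from set changes. The nuclear rRNA difference of the E14.5 library was not simulated. Sequences came from GENCODE M21 and copies from blastn 2.17.0. Values were given in full for both rRNAs, the 5 tRNAs with the highest mean count, and the 3 tRNAs with the highest and the 3 with the lowest ratio per comparison among those with at least 100 reads, and nuclear genes only past 2-fold. Further tRNAs were named after their values were seen, as were Polrmt, Tfam, Trmt10c, Elac2, Dazl and the mesonephric markers. The members and gene lists were chosen with earlier results of these data known. The mRNA class of the plan had no members here, so no value was computed for it. Alternatives were total counts, DESeq2 1.42.0 size factors, TMM within pairs, TMM without chrM, nuclear rRNA and short RNAs, TPM, no minimum, a prior of 2 and a fold of 1.5.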

Additional observations from a re-analysis of the deposited data

How the results depend on the processing

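With 1 library per time point, no library could be left out. No paired analysis was possible because each time point had a single library and the comparisons came from no test. The share without rRNA gives no value, since only tRNAs are then left. Of 24 alternative counts of members past 2-fold, 17 kept the direction and stayed within 1.5 times the main count. With no minimum count, 1 member was past 2-fold at E12.5 (TrnS1, 1 read and 0) and 1 at E13.5 (TrnY, 3 and 9 reads). At a fold of 1.5 the counts were 2, 2 and 16. At E14.5, total counts gave 1 lower member and TPM gave 6 lower members, in place of 6 higher ones.

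The tRNA sum at E12.5 changed by -0.066 with total counts and 0.057 in TPM. At E13.5 it changed by -0.17 in TPM. At E14.5 it changed by -0.24 with total counts and -0.80 in TPM, against 0.82 by TMM. The rRNA sum at E12.5 changed by -0.36 as reported, -0.19 with total counts, -0.36 with DESeq2 size factors, -0.37 with TMM on long nuclear genes and -0.10 in TPM. At E13.5 the rRNA values were 0.020, -0.011, -0.0054 and 0.11 in the same order, with -0.0071 by TMM within the pair. At E14.5 they were 0.10, 1.18, 1.185 and -0.41, with 1.18 by TMM within the pair, against 1.17 as reported. At E12.5, TMM within the pair gave the value as reported. Without the tRNAs that overlap another listed gene, the tRNA share of mitochondrial reads was 0.341%, 0.365%, 0.296% and 0.239%. In TPM it was 6.67%, 7.40%, 6.15% and 4.76%. Depth limits TrnD, TrnG and TrnS2 most, whose intervals span more than 2-fold in at least 1 comparison. TrnY, TrnS1 and TrnK were too low for any ratio.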
